A study of Mus musculus with 9 samples.

Results

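Genes that mark the cells of brain vessels were followed in the striatum of R6/2 and wild-type mice. The set named 37 genes, 29 of the endothelium and 8 of the mural cells (pericytes and vascular smooth muscle), picked by symbol. A gene was measured where an array probe set was annotated to it alone, and its brightest such probe set over all mice was used. On that rule 36 genes were measured, 28 endothelial and 8 mural, among 18193 genes in all, and Ly6c1 was the one without a value. The 5 R6/2 mice, named by their labels as R62_105, R62_107, R62_109, R62_86 and R62_95, carry a transgene with exon 1 of human huntingtin and an expanded CAG repeat under the human promoter, a model of Huntington disease in which only this fragment of the human protein is expressed beside the mouse gene. Controls were 4 wild-type mice, numbered 46, 47, 49 and 66. All 9 were females on a C57Bl/6 / CBA background, and the labels give 12 weeks as the age of both groups. In days, R62_86 and the 4 wild-type mice were 85 days old and the other 4 R6/2 mice 83 days old. Each mouse was 1 array of total striatal RNA, and values are log2 expression.

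Endothelial cells of brain capillaries form the blood-brain barrier. They seal the gaps between them with tight junctions, take nutrients and hormones up through carriers of the solute carrier families, and return drugs and toxins to the blood with ATP-driven pumps. Pericytes cover the capillaries and hold this state in place, while smooth muscle cells ring the arterioles and set their calibre with a contractile apparatus of actin, myosin and their binding proteins. In whole striatum all of these cells are a small part of the tissue, so a lower value could mean fewer of the cells or less RNA in each of them, and the arrays cannot tell these apart.

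The arrays were alike in scale, with medians between 5.37 and 5.45 and pairwise correlations between 0.979 and 0.995. The tissue label matched its markers, since the 6 measured markers of striatal projection neurons averaged 10.02 ± 0.39 (SD, n = 5) in R6/2 mice and 11.59 ± 0.17 (SD, n = 4) in wild-type mice. Wild-type mice 47 and 66 stood apart from the rest in their choroid plexus transcripts, with means of 8.12 and 8.30 over 12 markers, against 5.36 and 5.38 in wild-type mice 46 and 49 and 4.93 to 6.79 in R6/2 mice. R62_107, at 6.79, was the highest of its group. These 3 arrays, wild-type mice 47 and 66 and R62_107, are called choroid-high below. Calls of the endothelial and mural genes that change without them are given both ways. Genes of other vascular lists that lose their call without them are named together. With these arrays left out, wild-type mice 46 and 49 are the only controls.

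Few vascular genes differed between the genotypes. Among the 36 measured genes, Abcg2 rose, and Slco1c1 and Tagln fell, at an adjusted p under 0.05 by limma with Benjamini-Hochberg adjustment over all genes. The other 33 did not pass. Over all genes 16.9% passed, 9.28% higher and 7.57% lower in R6/2 mice, so the 3 of 36 are a smaller share than that of the array. Such shares depend on brightness, and 18 of the 36 genes were in the dimmer 50% of genes. When only the brighter 50% were tested, 2 of 18 vascular genes passed, against 29.8% of those genes. At an unadjusted p under 0.05 there were 9 of the 36, against 31.2% of all genes. The median log2 difference, R6/2 minus wild-type, was -0.03 over the 28 endothelial genes and 0.05 over the 8 mural genes, and -0.02 over all genes tested. The groups did not overlap for 3 of the 36 genes, against 17.3% of all genes, and these were the same 3 genes. A difference that misses the threshold does not show equal levels, and the widths of the intervals in the plot of differences by role show what these 9 mice could resolve.

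**Figure D1:**
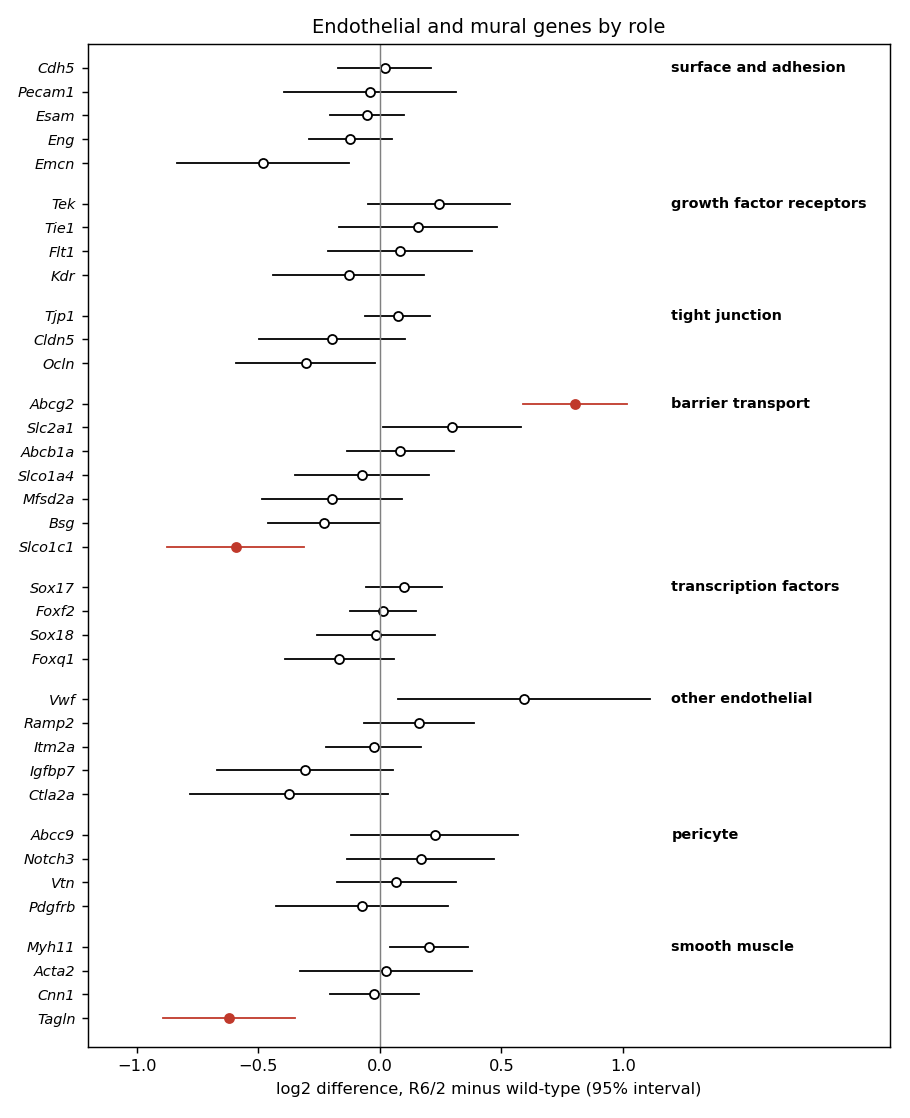
Log2 difference (R6/2 minus wild-type) of each of the 36 measured genes on the horizontal axis, with its 95% interval from limma, grouped by role. Filled points passed an adjusted p of 0.05. Abcg2 lies at 0.80, Slco1c1 at -0.59 and Tagln at -0.62, and 27 of the other 33 intervals span 0.

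The transporters of the barrier held both endothelial changes, and these ran in opposite directions. Abcg2 encodes the breast cancer resistance protein, an ATP-driven pump of the luminal membrane that returns drugs and other compounds to the blood. Its log2 level was 7.51, 7.49, 7.57, 7.23 and 7.40 in R62_86, R62_95, R62_105, R62_107 and R62_109, and 6.71, 6.68, 6.38 and 6.78 in wild-type mice 46, 47, 49 and 66. Every R6/2 mouse lay above every wild-type mouse. Abcg2 averaged 7.44 ± 0.13 (SD, n = 5) in R6/2 mice and 6.64 ± 0.18 (SD, n = 4) in wild-type mice. The difference of 0.80 ± 0.10 (SE) is a 1.74-fold higher level and passed at an adjusted p of 0.000527 by limma. It was 0.95 (adjusted p 0.0135) without the 3 choroid-high arrays and 0.68 (adjusted p 0.0442) with the mean of cortex neuron markers as a covariate. Of the 7 cortex neuron markers 3 rose and 0 fell, against 9.28% and 7.57% of all genes. Their mean ran from 6.84 to 7.76 in R6/2 mice and from 5.80 to 7.10 in wild-type mice. Its part in the result was not tested. The Abcg2 difference did not pass with age in days as a covariate (0.87, adjusted p 0.0738), a fit in which R62_86 alone shares the age of the controls.

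Slco1c1 encodes OATP1C1, a carrier that brings thyroxine across the barrier, and is also made by astrocytes and choroid plexus. Its log2 level was 9.26, 9.20, 8.79, 9.39 and 9.02 in R6/2 mice, and 9.65, 9.83, 9.48 and 9.94 in wild-type mice, in the order of mice given for Abcg2. The lowest wild-type mouse, 49, was just above the highest R6/2 mouse, R62_107. Slco1c1 fell by 0.59 ± 0.13 (SE), to 0.663 of the wild-type level (adjusted p 0.0107 by limma). Of 8 astrocyte markers, 4 fell and 0 rose, against 7.57% and 9.28% of all genes, and 2 of the 8 had a positive difference. Their mean ran from 9.34 to 9.65 in R6/2 mice against 9.67 to 9.84 in wild-type mice. None of the 8 was among the dimmer 50% of genes, and the part of astrocytes in the Slco1c1 result was not tested. The call held with the choroid plexus mean as a covariate (-0.45, adjusted p 0.0367). It ended without the 3 choroid-high arrays (-0.50, adjusted p 0.0948), with the cortex mean as a covariate (-0.38, adjusted p 0.323) and with age as a covariate (-0.46, adjusted p 0.393).

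Because Abcg2 and Slco1c1 are the endothelial genes that differed, the sequences around their annotated starts are shown. RefSeq (GRCm38.p6) windows from 250 bases before to 50 after a start were held for 24 of the 36 genes, with 3 separate starts for Abcg2 and 1 for Slco1c1. The Slco1c1 window is chr6:141524104-141524403 on the plus strand, and the Abcg2 window printed is that of the third start, chr6:58640296-58640595 on the plus strand. Both read 5′ to 3′, and capitals mark the 50 bases from the start onwards.
Slco1c1: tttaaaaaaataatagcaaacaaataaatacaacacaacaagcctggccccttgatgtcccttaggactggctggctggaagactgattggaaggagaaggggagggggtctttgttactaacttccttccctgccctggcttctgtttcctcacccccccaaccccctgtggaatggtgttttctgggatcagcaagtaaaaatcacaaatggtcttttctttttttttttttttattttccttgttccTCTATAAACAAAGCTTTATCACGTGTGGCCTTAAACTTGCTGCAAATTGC
Abcg2: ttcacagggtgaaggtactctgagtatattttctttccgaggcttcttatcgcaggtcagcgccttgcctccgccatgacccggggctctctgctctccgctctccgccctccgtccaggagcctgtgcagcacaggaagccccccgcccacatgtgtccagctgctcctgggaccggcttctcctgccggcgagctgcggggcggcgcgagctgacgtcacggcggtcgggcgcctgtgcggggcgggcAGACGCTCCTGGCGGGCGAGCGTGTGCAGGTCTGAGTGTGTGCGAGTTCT
Of the 3 Abcg2 windows, this one alone held TGACGTCA, the palindromic binding motif of cyclic AMP-responsive factors, which begins 37 bases before the start. TGACGTCA is present in 1.79% of all 32851 windows of this length. The same window held GCGTG, the core bound by the aryl hydrocarbon receptor, at position 20 counted from the start base as 1. GCGTG, searched on both strands, is found in 32.4% of all windows, and the 2 motifs did not overlap in this one. The Slco1c1 window held neither motif, nor did the Abcg2 windows that are not printed. Of the 24 genes with a window, 12 held GCGTG and 2 held TGACGTCA. These are counts of genes, which had 28 windows together, while the percentages above are shares of single windows. The other gene with TGACGTCA was Flt1, whose difference did not pass. A match describes the letters only, and the arrays do not tell which Abcg2 start was used. The part of either motif in the Abcg2 difference was not tested.

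**Figure D2:**
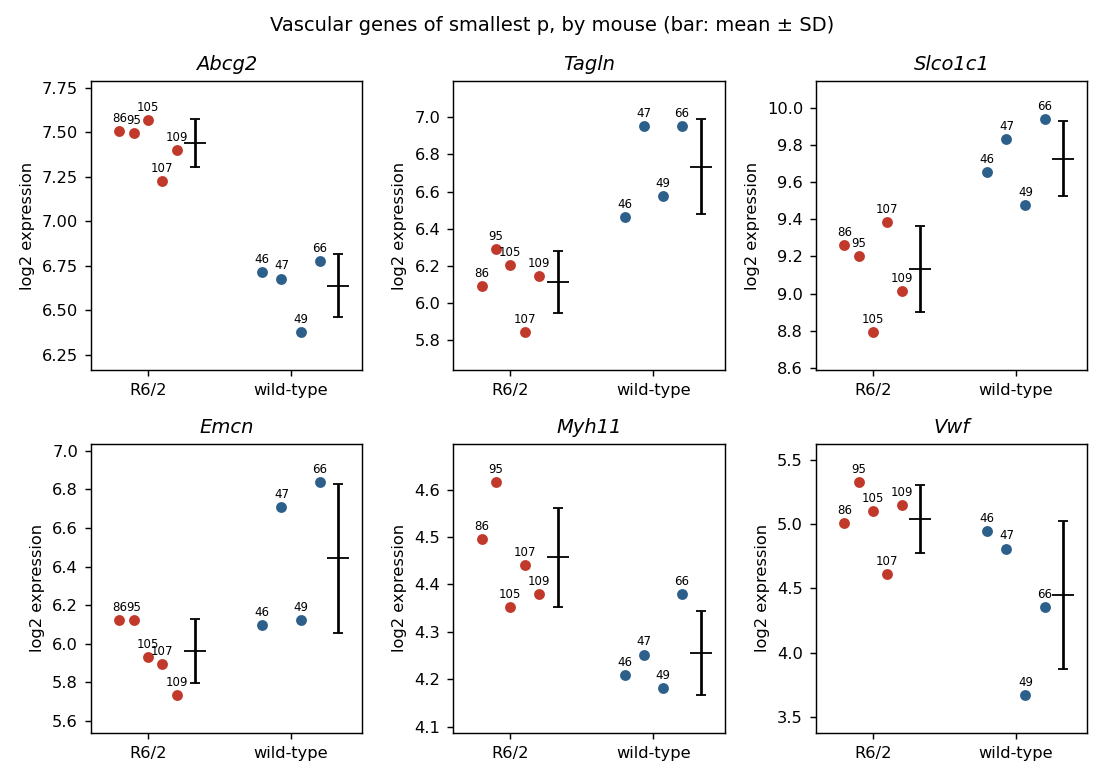
Log2 expression of the 6 vascular genes of smallest p, 1 point per mouse with the mouse number beside it and the mean ± SD as a bar (5 R6/2 mice left, 4 wild-type mice right). The groups are apart for Abcg2, Tagln and Slco1c1 and overlap for Emcn, Myh11 and Vwf.

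The remaining carriers and pumps did not pass. Slc2a1, the glucose transporter GLUT1, was at 9.56, 9.90, 10.09, 9.64 and 9.53 in R6/2 mice and at 9.36, 9.49, 9.25 and 9.69 in wild-type mice, so that wild-type mouse 66 lay within the R6/2 range. Its difference was 0.30 ± 0.13 (SE, adjusted p 0.143), and the other 2 probe sets of the gene gave 0.22 and 0.16. Abcb1a, the P-glycoprotein pump that shares many substrates with the product of Abcg2, gave 0.09 ± 0.10 (adjusted p 0.601), with a 95% interval of -0.13 to 0.30 that does not reach the 0.80 of Abcg2. Slco1a4, a carrier of organic anions, gave -0.07 ± 0.12 (adjusted p 0.729). Mfsd2a, which transports docosahexaenoic acid and restrains vesicle traffic across the endothelium, gave -0.20 ± 0.13 (adjusted p 0.336). Bsg, the chaperone of the lactate transporters, gave -0.23 ± 0.10 (adjusted p 0.160).

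No tight junction gene passed. Cldn5, the claudin that seals brain endothelium, was at 8.52, 8.49, 7.88, 8.41 and 8.22 in R6/2 mice and at 8.61, 8.70, 8.27 and 8.42 in wild-type mice. The groups overlap, and the difference was -0.20 ± 0.14 (SE, adjusted p 0.365). Ocln, which encodes the junction protein occludin, spanned 5.83 to 5.89 in R6/2 mice and was 5.89, 6.57, 5.89 and 6.35 in wild-type mice. The higher wild-type values were those of mice 47 and 66. Its difference of -0.31 ± 0.13 (adjusted p 0.137) was -0.03 without the 3 choroid-high arrays. The part of choroid plexus tissue in the Ocln values was not tested. Tjp1, the scaffold ZO-1 beneath the junction, gave 0.07 ± 0.06 (adjusted p 0.448).

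None of the 5 surface and adhesion genes of the endothelium passed. Pecam1, the adhesion molecule CD31, ranged from 5.58 to 5.85 in R6/2 mice and from 5.20 to 6.10 in wild-type mice (difference -0.04 ± 0.16, adjusted p 0.893). Cdh5, the cadherin of endothelial contacts, gave 0.02 ± 0.09 (adjusted p 0.903), Esam -0.05 ± 0.07 (0.651) and Eng, a coreceptor of the TGF-beta family, -0.12 ± 0.08 (0.319). Emcn, a surface sialomucin of capillaries and veins, came nearest to the threshold. It was at 6.12, 6.12, 5.93, 5.89 and 5.74 in R6/2 mice and at 6.10, 6.71, 6.12 and 6.84 in wild-type mice. Wild-type mice 47 and 66 again stood above the rest, and mice 46 and 49 lay within the R6/2 range. The difference was -0.48 ± 0.16 (adjusted p 0.0648), and it was -0.13 without the 3 choroid-high arrays (adjusted p 0.579). Emcn passed without wild-type mouse 46 (adjusted p 0.0331) or 49 (0.0352), the 2 controls low in choroid plexus transcripts.

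Of the receptors for vascular growth factors, none passed. Tek, the TIE2 receptor of the angiopoietins, was at 6.72, 6.72, 6.37, 6.38 and 6.30 in R6/2 mice and at 6.39, 6.37, 5.87 and 6.39 in wild-type mice, where mouse 49 alone was low. Its difference was 0.24 ± 0.13 (SE, adjusted p 0.239). Tie1, its orphan partner, gave 0.16 ± 0.15 (adjusted p 0.502). The VEGF receptor genes Kdr and Flt1 gave -0.13 ± 0.14 (0.577) and 0.08 ± 0.13 (0.711). The 4 probe sets of Flt1 gave differences from -0.01 to 0.33.

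The endothelial transcription factors were dim and did not pass. All 4 were in the dimmer 50% of genes, and Foxf2, which acts in brain mural cells, lay at 3.43 to 3.59 in R6/2 mice and 3.39 to 3.54 in wild-type mice. The lowest 10% of genes average below 3.51, so its value says little. Sox17 gave 0.10 ± 0.07 (adjusted p 0.376), Sox18 -0.02 ± 0.11 (0.942) and Foxq1, which is enriched in brain endothelium, -0.17 ± 0.10 (0.300). Foxq1 passed without wild-type mouse 49 (-0.27, adjusted p 0.0293), the lowest of its group. The other Foxq1 probe set, dim at means of 3.39 in R6/2 mice and 3.25 in wild-type mice, gave 0.14.

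Of the other endothelial genes, Vwf, Ctla2a and Igfbp7 spread widely among the controls (SD 0.57, 0.48 and 0.37). Ramp2 and Itm2a spread less there (SD 0.05 and 0.11) than in R6/2 mice (SD 0.21 and 0.15). Vwf, the clotting factor stored in endothelial granules, was at 5.01, 5.33, 5.10, 4.61 and 5.15 in R6/2 mice and at 4.95, 4.81, 3.67 and 4.35 in wild-type mice. Mice 49 and 66 were the low ones, and the other 2 controls lay within the R6/2 range. Its difference of 0.59 ± 0.24 (SE) is of the size of the Slco1c1 change, but its adjusted p was 0.112. Vwf was also dim, at percentile 31 of all genes by mean level, against 88 for Slco1c1. Without wild-type mouse 49 the difference of Vwf was 0.34 (adjusted p 0.217), and with the cortex mean as a covariate 0.02. Ctla2a, a cysteine protease inhibitor, was at 4.92 to 5.23 in R6/2 mice and at 4.71, 5.45, 5.81 and 5.63 in wild-type mice, and gave -0.37 ± 0.18 (adjusted p 0.198). Without wild-type mouse 46 it was -0.60 and passed (adjusted p 0.00487). Igfbp7, a secreted protein of the vessel wall, gave -0.31 ± 0.16 (adjusted p 0.232), Ramp2, the partner of the adrenomedullin receptor, 0.16 ± 0.10 (0.320) and Itm2a -0.02 ± 0.09 (0.878).

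Among pericyte genes no difference passed. Pdgfrb, the PDGF receptor that holds pericytes on the capillary, was at 7.55, 7.86, 7.36, 7.56 and 7.46 in R6/2 mice and at 7.35, 7.76, 7.32 and 8.10 in wild-type mice (difference -0.07 ± 0.16, adjusted p 0.793). Vtn, which encodes vitronectin, gave 0.07 ± 0.11 (0.714) and Notch3, a receptor of mural cells, 0.17 ± 0.14 (0.440). The other probe sets of Vtn and Notch3 went the other way, at -0.10 and -0.09. Abcc9, the SUR2 subunit of potassium channels in pericytes, was at 6.25, 6.26, 6.48, 6.27 and 6.29 in R6/2 mice and at 5.74, 6.27, 5.76 and 6.56 in wild-type mice. Wild-type mice 46 and 49 lay below all R6/2 mice, and 47 and 66 did not. Its difference was 0.23 ± 0.16 (adjusted p 0.358), but it passed with the choroid plexus mean as a covariate (0.43, adjusted p 0.0462) and without the 3 choroid-high arrays (0.57, adjusted p 0.0250).

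The smooth muscle genes did not move together. Tagln encodes transgelin (SM22), an actin-binding protein of contractile smooth muscle. Its log2 level was 6.09, 6.29, 6.20, 5.84 and 6.14 in R6/2 mice and 6.46, 6.95, 6.58 and 6.95 in wild-type mice. Every R6/2 mouse was below every wild-type mouse, and 47 and 66 were the highest controls. Tagln averaged 6.11 ± 0.17 (SD, n = 5) in R6/2 mice and 6.73 ± 0.25 (SD, n = 4) in wild-type mice, and fell by 0.62 ± 0.12 (SE, adjusted p 0.00728 by limma) to 0.651 of the wild-type level. Without the 3 choroid-high arrays it was -0.34 (adjusted p 0.0837), and the call also ended with the cortex mean (-0.58, adjusted p 0.167) or age (-0.64, adjusted p 0.239) as a covariate.

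Acta2, the actin of the same cells, was at 7.96, 8.04, 7.77, 7.66 and 8.29 in R6/2 mice and at 7.81, 8.16, 7.51 and 8.20 in wild-type mice. The groups overlap, with a difference of 0.03 ± 0.16 (SE, adjusted p 0.931) and a 95% interval of -0.33 to 0.38, above the value of Tagln. Myh11, the smooth muscle myosin, was at 4.35 to 4.62 in R6/2 mice and 4.18 to 4.38 in wild-type mice, a difference of 0.20 ± 0.07 (adjusted p 0.0841), while its other probe set gave -0.11. Cnn1, which encodes calponin, was near the dim end of the array (3.32 to 3.71 in R6/2 mice and 3.55 to 3.63 in wild-type mice), with a difference of -0.02 ± 0.08 (adjusted p 0.884). The probe sets of Acta2, Abcc9 and Notch3 carry the suffix by which the manufacturer marks probes that match several transcripts, and that of Sox17 the suffix for possible cross-hybridisation.

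The means over both gene sets spread more among controls than in R6/2 mice, with no test of the spread. The mean of the 28 endothelial genes was 7.07, 7.17, 7.03, 7.02 and 6.94 in R6/2 mice and 7.03, 7.19, 6.87 and 7.19 in wild-type mice. The mean of the 8 mural genes was 6.43, 6.60, 6.39, 6.37 and 6.41 in R6/2 mice and 6.27, 6.59, 6.24 and 6.67 in wild-type mice. The R6/2 mice thus lay inside the range of the controls for both means, and R62_95 was the highest of its group for both. Among the controls, mice 47 and 66 were both above 46 and 49 for 7 of 8 mural genes and 14 of 28 endothelial genes, against 12.8% of all genes. These are the same mice as in the choroid plexus means, in which all 12 measured markers had a negative difference and 0 passed, and 10 of the 12 were in the dimmer 50% of genes. Wild-type mouse 49 was the lowest control for 18 of 28 endothelial and 5 of 8 mural genes, against 23.1% of all genes. The part of choroid plexus tissue in the vascular values was not tested. The mean of fibroblast and meningeal markers, of which 0 of 10 passed, ran from 5.57 to 5.92 in R6/2 mice and from 5.54 to 5.87 in wild-type mice. The mean of perivascular macrophage markers, of which 0 of 5 passed, ran from 4.12 to 4.18 in R6/2 mice and from 4.12 to 4.36 in wild-type mice. The mean of 3 red cell markers ran from 4.15 to 4.26 in R6/2 mice and from 4.36 to 4.46 in wild-type mice, with no overlap. Of these markers 0 passed, all 3 had a negative difference at an unadjusted p under 0.05 by limma, and all 3 were dim. Of 8 microglia markers 3 fell and 0 rose, against 7.57% and 9.28% of all genes. All 8 had a negative difference, against 9798 of all 18193 genes, and the median of the 8 was -0.45. Their mean ran from 7.24 to 7.59 in R6/2 mice and from 7.66 to 8.08 in wild-type mice, with no overlap, and 2 of the 8 were in the dimmer 50% of genes. Of 5 oligodendrocyte markers 1 fell and 0 rose, against 7.57% and 9.28% of all genes. Their mean ran from 10.34 to 10.96 in R6/2 mice and from 10.63 to 10.93 in wild-type mice. The part of red cells, microglia and oligodendrocytes in the vascular values was not tested.

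**Figure D3:**
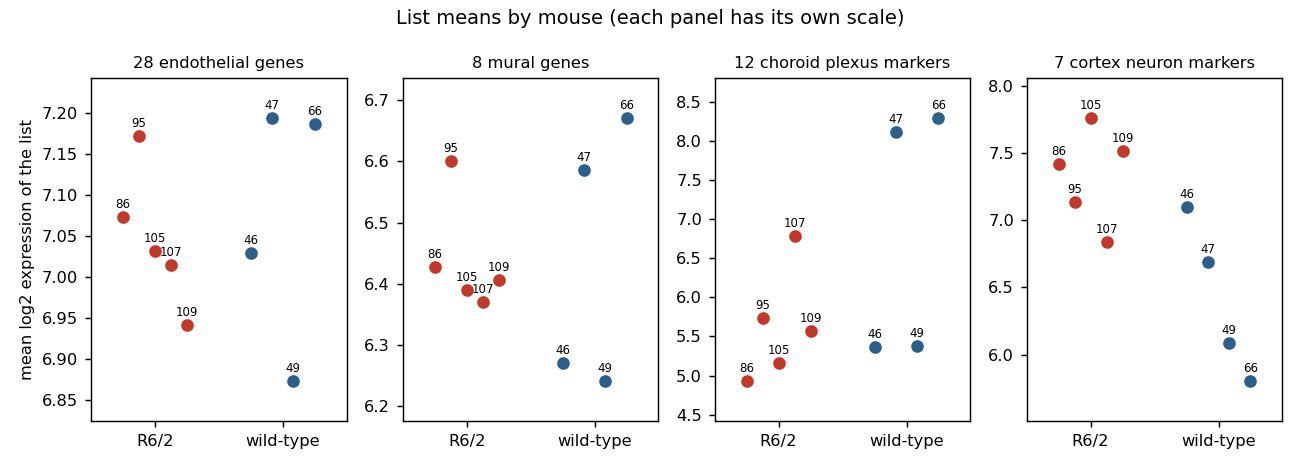
Mean log2 expression of 4 gene lists in each mouse, with the mouse number beside each point (R6/2 left, wild-type right, scales differ between panels). Wild-type mice 47 and 66 are above 46 and 49 for the endothelial, mural and choroid plexus means, and the cortex neuron mean runs from 6.84 to 7.76 in R6/2 mice and from 5.80 to 7.10 in wild-type mice.

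Other genes of vessel signalling and structure were read from 7 further lists. Of 135 measured genes, 4 rose and 14 fell, against 9.28% higher and 7.57% lower over all genes. Both directions together are 13.3% of the 135, against 16.9% of all genes, and the median of the 135 was -0.06. Among 25 vascular ligands and partner receptors 1 rose and 5 fell, 24% of the list against 16.9% of all genes. The Notch ligand gene Jag1 was at 6.31, 6.23, 5.98, 6.29 and 6.08 in R6/2 mice and at 6.94, 7.30, 7.21 and 7.17 in wild-type mice, and fell by 0.98 ± 0.09 (SE, adjusted p 0.000203). The groups were apart, and Jag1 was the one of these 18 genes to pass also with the cortex mean as a covariate. Acvrl1, the ALK1 receptor of endothelial cells that works with the product of Eng, fell by 1.18 ± 0.24 (adjusted p 0.00765), and the Notch ligand gene Dll1 by 0.36 ± 0.08 (0.0111). Angpt1, the ligand of TIE2 that neurons and mural cells release, rose by 0.96 ± 0.18 (adjusted p 0.00605), although wild-type mouse 46, at 5.37, was within the R6/2 range of 5.33 to 6.11. The other 2 that fell, named after their values were seen, were Dll4, a Notch ligand of arteries, at -0.26 and Apln, the ligand apelin of sprouting vessels, at -0.42. Each of the 2 lost its call in several fits that left out 1 mouse.

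In the Wnt and Norrin pathway, which induces barrier genes in brain endothelium, 1 of 15 genes rose and 2 fell. That is 20% of the list, against 16.9% of all genes (9.28% higher and 7.57% lower). The neural ligand gene Wnt7a fell by 0.70 ± 0.09 (SE, adjusted p 0.000661) and Tspan12, a coactivator of the Norrin receptor, by 0.44 ± 0.13 (0.0352). Ctnnb1, the beta-catenin gene, rose by 0.33 ± 0.10 (0.0400). The Tspan12 call ended without R62_86, R62_95, R62_105, R62_107 or wild-type mouse 66, and the Ctnnb1 call without R62_86, R62_105, R62_107, R62_109 or wild-type mouse 49 or 66. The Ctnnb1 call also ended with the mean of its 3 probe sets (0.28, adjusted p 0.259) and with housekeeping centring (0.25, adjusted p 0.0919). Of 18 other barrier transporters and receptors 2 rose and 0 fell (11.1%, against 16.9% of all genes). Lrp8, a receptor of apolipoprotein E and reelin that neurons also make, rose by 0.64 ± 0.15 (adjusted p 0.0135) and Slc7a1, a carrier of cationic amino acids, by 0.40 ± 0.10 (0.0210), a call that ended without R62_86 or R62_105. The Slc7a1 call also ended with housekeeping centring (0.32, adjusted p 0.0577) and with the choroid plexus mean as a covariate (0.41, adjusted p 0.0519). Of 10 other tight junction genes 1 was called (10%, against 16.9% of all genes). Cldn12 fell by 0.33 ± 0.07 (0.0126), a call that ended without the 3 choroid-high arrays. Of the 10, 8 had a negative difference, against 9798 of all 18193 genes.

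Of 33 other endothelial markers 0 rose and 2 fell (6.06%, against 16.9% of all genes). Anxa3, an annexin, fell by 0.53 ± 0.11 (SE, adjusted p 0.00944) and Tfpi, an inhibitor of coagulation, by 0.39 ± 0.07 (0.00510). The Tfpi call rests on the brightest of its 4 probe sets, since the mean of the 4 gave -0.04 (adjusted p 0.764). Of 8 endothelial activation genes Vcam1, an adhesion molecule for leukocytes, fell by 0.52 ± 0.12 (0.0148) and 0 rose (12.5% called). Of 26 other pericyte and smooth muscle genes 3 fell and 0 rose (11.5%, against 16.9% of all genes). They were Tpm1, a tropomyosin (-0.74 ± 0.10, adjusted p 0.000787), Srf, the serum response factor that drives contractile genes and also acts in neurons (-0.67 ± 0.09, 0.000958), and Synpo2, an actin-binding protein (-1.15 ± 0.19, 0.00262). Several of these genes are also expressed in neurons or glia, and the 6 measured markers of spiny projection neurons all fell (median -1.53). The part of those cells in the changes of these lists was not tested. With the cortex mean as a covariate 1 of the 18 genes passed, with age 0, and without the 3 choroid-high arrays 7. These 7 were Jag1, Wnt7a, Lrp8, Anxa3, Tfpi, Tpm1 and Srf. The calls of Acvrl1, Angpt1, Dll1, Dll4, Apln, Tspan12, Ctnnb1, Slc7a1, Cldn12, Vcam1 and Synpo2 ended without those arrays. Over all genes 16.9% passed in the main fit, 1.69% with the cortex mean, 0.165% with age and 4.85% without those arrays. The fit without them had wild-type mice 46 and 49 as its only controls. The part of choroid plexus tissue in the lost calls was not tested.

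**Figure D4:**
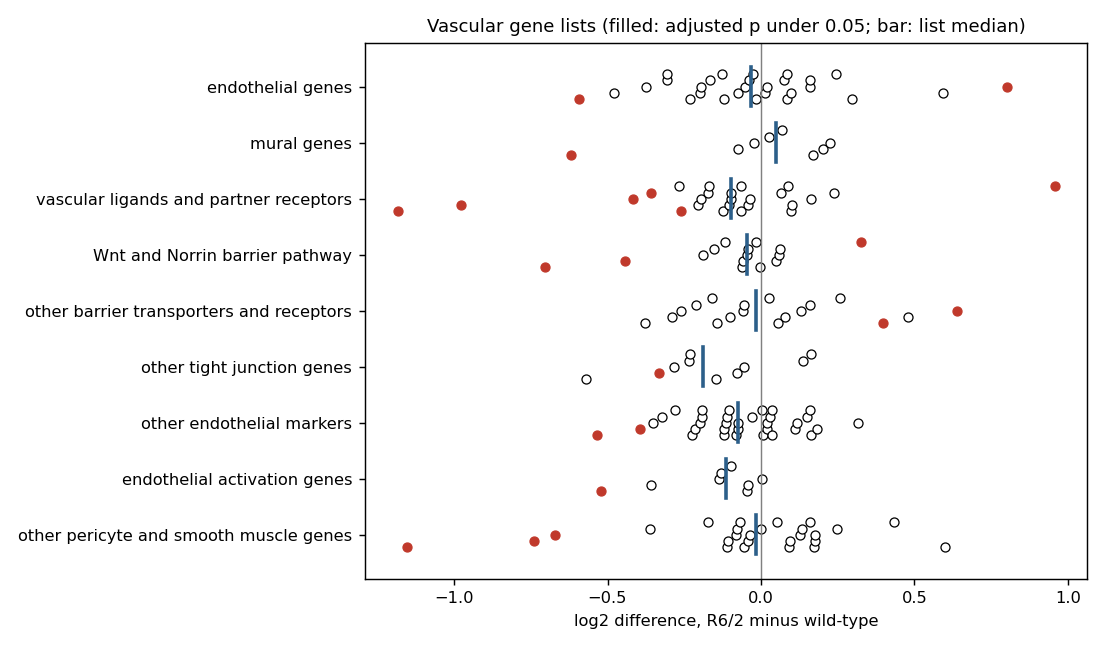
Log2 difference (R6/2 minus wild-type) on the horizontal axis for every measured gene of the endothelial and mural sets and of 7 other vascular lists, 1 point per gene, spread vertically for legibility. Filled points passed an adjusted p of 0.05 and the blue bar is the list median, which lies between -0.19 and 0.05 in the 9 lists shown.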

How the data were processed

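Total RNA of the striatum of 5 R6/2 and 4 wild-type mice was labelled with biotin in an in vitro transcription step, per the labels' protocols, and hybridised to 1 array a mouse. The authors deposited log2 values for 45101 probe sets, for which the submitters' processing notes name RMA and affy. RMA removes background, forces the arrays to a common distribution and combines probes, so that each difference is relative to other genes and a change in total RNA is not seen. The software versions and the set of arrays that entered RMA are not stated in the labels used. Through the platform annotation 34945 probe sets, manufacturer controls left out, named exactly 1 gene, and 34741 of them matched the RefSeq table by gene identifier. The brightest probe set over all mice stood for each of 18193 genes, and no filter on dim genes was set.

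The genotype effect was fitted with lmFit and eBayes of limma 3.58.1 in R 4.3.3, with no other term. Tests were two-sided, p-values were adjusted by Benjamini-Hochberg across the 18193 genes, and calls were made under 0.05. List means were not tested. The members and the gene lists were chosen with earlier results of these data known, as were the 3 choroid-high arrays. Every measured member could be named. Of each other vascular list, up to 4 passing genes of smallest p were to be named, with Dll4 and Apln of the ligand list added after their values were seen, and of other cell types no single gene. Nothing in the labels says that mice share a litter or a processing batch, and the number of arrays limits the precision. Alternatives were the mean of probe sets, every probe set alone, quantile normalization, median and housekeeping centring, the brighter 50% of genes, trend and robust settings, array weights, 3 covariates (age, choroid plexus mean and cortex mean), the 3 choroid-high arrays left out together and each mouse left out in turn. For genes of other lists these were added after the data were seen. Of the 6 measured housekeeping genes 1 was itself called higher in R6/2 mice, and their mean was 0.07 higher there. Housekeeping centring therefore also subtracts that difference from every gene. Figures were drawn with matplotlib 3.10.9.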

Additional observations from a re-analysis of the deposited data

Results flagged for a closer look

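In 76 sets of values (36 genes and 2 list means, in each genotype), 9 had a mouse far from the others of its genotype, measured as its gap to the nearest mouse divided by the range of the group. Chance gives such a gap in about 1 of 20 sets, and genes of the same cells are not independent. Wild-type mouse 49 accounted for 5 of them. It was the lowest control for Tek (5.87, the next at 6.37, a gap of 0.958 of the range), Tie1 (4.44, next 4.75, 0.884), Eng (7.42, next 7.64, 0.880) and Cdh5 (5.33, next 5.51, 0.857), and the highest for Cnn1 (3.63, next 3.55, 0.956), a gene at the dim end. Wild-type mouse 66 was lowest for Sox17 (5.90, next 6.04, 0.964). In R6/2 mice, R62_109 was lowest for Pecam1 (5.58, next 5.77, 0.714), R62_105 highest for Abcc9 (6.48, next 6.29, 0.799) and R62_95 highest for the mean of the 8 mural genes (6.60, next 6.43, 0.753). None of Abcg2, Slco1c1 and Tagln had such a mouse. The cause was not tested.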

How the results depend on the processing

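Abcg2 was higher at between 0.68 and 0.95 in all 20 alternatives and passed in all but that with age as a covariate. Slco1c1 was lower at between -0.68 and -0.38, and Tagln at between -0.71 and -0.34. Each kept its call in every fit that left out 1 mouse, where the endothelial counts ranged from 1 to 1 higher and from 1 to 3 lower and the mural counts from 0 to 0 higher and from 1 to 1 lower. With age as a covariate 0 endothelial genes were higher, 0 endothelial genes lower and 0 mural genes lower, in a fit where 30 of all genes passed. With the cortex mean as a covariate 0 endothelial and 0 mural genes were lower (308 of all genes passed), and likewise 0 and 0 without the 3 choroid-high arrays (882 of all genes, 6 mice). Tagln was below the brighter 50% of genes, which left 0 mural genes lower there. Quantile normalization gave 2 endothelial genes lower (with Emcn) and array weights 4 (with Emcn, Foxq1 and Ocln). Abcc9 made 1 mural gene higher with the choroid plexus mean as a covariate and 1 without the 3 arrays, where the median of the mural genes was 0.27. That median ranged from -0.00 to 0.13 with 1 mouse left out and was -0.03 after housekeeping centring, and the endothelial median ranged from -0.09 to 0.00, so neither has a settled sign. No gene past the threshold changed sign. Genes dim on the arrays, such as Foxf2 and Cnn1, have little signal over background to resolve a difference. No paired analysis was made because the labels give no litter or batch by which mice of the 2 genotypes could be paired.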
